A study of Homo sapiens with 4 samples.

Results

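Forkhead box O (FOXO) factors and a set of their direct target genes were examined in TPC1 cells, a human papillary thyroid cancer line that expresses the CCDC6-RET fusion. The set held 10 genes chosen by symbol, of 20372 genes in the deposited table, and comprised the 3 factors FOXO1, FOXO3 and FOXO4 and the 7 targets SESN1, SESN3, CCNG2, KLHL24, CITED2, FBXO32 and PDK4. One group was exposed for 6 h to BLU6864, a selective inhibitor of the RET receptor tyrosine kinase, and the other to the vehicle DMSO, with 2 libraries in each group (n = 2). The study's methods describe culture of these cells in DMEM with fetal bovine serum under other assays. Their passage on RNA sequencing of the treated cells names no medium. All cells came from a single cell line. Nothing in the sources states that the libraries of a group came from separate cultures. The p-values therefore measure only the spread between these libraries, which may be technical. The labels give a dose of 100 micromolar and the text of the study one of 100 nM, and which of them applies is not known. The titles call the BLU6864 libraries a re-analysis. Columns of the DMSO libraries carry 24 h in their names, and exposure to the inhibitor and time in culture cannot be told apart.

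FOXO proteins are transcription factors that are held in check by growth factor signalling. Active AKT phosphorylates them, which creates binding sites for the YWHA adaptor proteins and retains them in the cytoplasm. When AKT activity falls, FOXO proteins enter the nucleus and activate genes for cell cycle arrest, cell death, stress resistance and fuel switching, some of the FOXO genes among them. RET fusions signal through ERK and AKT in thyroid cancer cells.

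Sequencing yielded between 23750509 and 28305571 counted reads per library. Among thyroid follicular markers, PAX8 had 20808 ± 1010 normalized counts (mean ± SD, reads divided by the size factor of the library) after BLU6864 and 26795 ± 919 after DMSO, and it passed the test as lower together with TG and FOXE1. PAX8 did not pass when BLU6864 replicate 1 (adjusted p = 0.355) or replicate 2 (adjusted p = 0.181) was omitted, nor FOXE1 without the latter (adjusted p = 0.141), the lowest values over the other analyses being 0.00153 and 5.6e-05. TSHR and NKX2-1 had no read in any library and the remaining 3 of 8 markers were too low to test, so the libraries carry only part of the thyroid profile. Of 10 leukocyte, endothelial, fibroblast and muscle markers analysed, 5 had no read and 9 had at most 10 reads in every library. The exception, the collagen gene COL1A1, was counted at 226 ± 4.997 after BLU6864 and 156 ± 2.04 after DMSO, and the summed level of the list ranged from 235 to 239 with BLU6864 and from 163 to 167 with DMSO. Their part in the results was not tested. Since whole cultures were measured, fewer cells that express a gene and less RNA of it per cell cannot be told apart.

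Promoter sequences were inspected first for the core sequence bound by FOXO factors. RefSeq windows (GRCh38.p14, 250 bases before to 50 bases after each annotated start) matched 9 of 10 members (all but FBXO32), with 16 windows in all because several members have more than 1 start. The FOXO core GTAAACA, searched on both strands as were all motifs here, was found in 1 of these 16 windows, and in 3.42% of 35116 windows genome-wide. The insulin response element core CAAAACA was also found in 1 of 16, against 4.92% of all windows. Some windows of FOXO3 and of CITED2 overlap, and 1 match of each motif is no result about the members. The 2 motifs have different letters and cannot coincide. A match is a description and not a binding site, and no match says only that these letters are not in the window. The matching stretches, all that were found, are shown with the motif in capitals, as the reverse complement in KLHL24. They belong to FOXO4 and KLHL24, which rose with BLU6864. FOXO3, SESN1, CCNG2 and PDK4 also rose, and their windows held no match.
KLHL24: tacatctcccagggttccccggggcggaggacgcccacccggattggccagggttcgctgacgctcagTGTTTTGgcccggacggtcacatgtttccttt
FOXO4: ccggcgagtgGTAAACAgagacgtcag
The KLHL24 stretch is the 100 bases just before the start site (chr3:183635523-183635622, plus strand), with the first motif base 32 bases before the start. The FOXO4 stretch of 27 bases lies just after the start site (chrX:71095864-71095890, plus strand), with its motif starting at base 24 counted from the start site as base 1.

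BLU6864 was associated with higher messenger RNA for 6 members and lower for none. Of 9 members that passed the filter on low counts, 6 rose, 0 fell and 3 did not pass the test (edgeR quasi-likelihood test, Benjamini-Hochberg adjusted p under 0.05 over 12696 genes). Among all tested genes 20.3% were called higher and 22% lower. FOXO3 and FOXO4 rose among the factors, and SESN1, CCNG2, KLHL24 and PDK4 among the targets. FOXO1, CITED2 and FBXO32 did not pass, and SESN3 had too few reads to test. PDK4 passed the filter only through its BLU6864 libraries, so its inclusion was tied to its being higher there. Normalized counts of the BLU6864 libraries lay entirely above those of DMSO for 7 of 10 members and entirely below for 2, against 35.1% and 35.7% of all tested genes. The 7 include SESN3, which had too few reads to test, whereas the shares are of tested genes only. All 6 members kept their call under each of 9 other analyses, including DESeq2 and the omission of each library in turn.

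**Figure D1:**
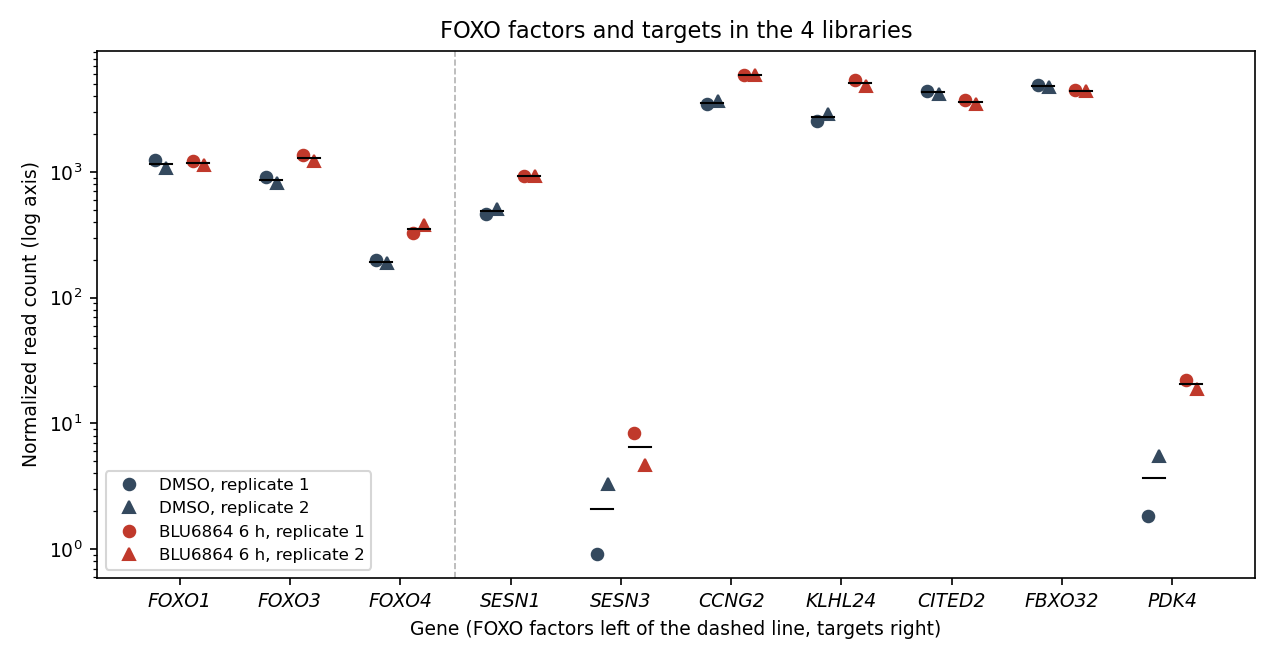
Normalized read count (log axis) of each FOXO factor and target in the 4 libraries, with circles for replicate 1, triangles for replicate 2 and a black line for the group mean. Red points (BLU6864, 6 h) lie above dark points (DMSO) for 7 genes, below them for CITED2 and FBXO32, and among them for FOXO1.

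FOXO1, a factor best known for its control of metabolism and the cell cycle (ENSG00000150907, hg19 chromosome 13, 41129804 to 41240734), was the member with the least change. In replicates 1 and 2 its normalized counts were 1216 and 1145.5 after BLU6864, as against 1249 and 1072 after DMSO. Values of the other members are given in the same order. The groups overlapped, since both BLU6864 values fell between those of the DMSO libraries. The log2 fold change was 0.03 ± 0.11 (SE; 95% interval -0.20 to 0.25, adjusted p = 0.862, edgeR), so a change of the size seen in FOXO3 lies outside the interval.

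FOXO3, a factor tied to stress resistance and cell death (ENSG00000118689, hg19 chromosome 6, 108881038 to 109005977), reached 1377 and 1230 normalized counts in the BLU6864 libraries against 914 and 822 in the DMSO libraries. Each treated library was above each control. FOXO3 rose 1.504-fold (log2 fold change 0.59 ± 0.11, adjusted p = 1.1e-04, edgeR). Only 10.8% of tested genes had a larger log2 fold change.

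FOXO4, the X-linked and least abundant of the measured factors (ENSG00000184481, hg19 chromosome X, 70316047 to 70323385), stood at 327 and 377 normalized counts with BLU6864 and at 200 and 188 with DMSO. The groups were separate. FOXO4 rose 1.82-fold (0.86 ± 0.14, adjusted p = 1.5e-05, edgeR), and 5.59% of tested genes had a larger log2 fold change. FOXO6, the remaining member of the family, had 7 or 8 reads in every library and was not tested.

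The mix of the 3 factors, taken from the same counts as above, differed between the groups of libraries. Levels were set against each other per kilobase of the canonical transcript in GENCODE 44. With DMSO, FOXO1 stood at 201 ± 21.7 normalized counts per kb, FOXO3 at 119 ± 8.98 and FOXO4 at 53.2 ± 2.20. With BLU6864 the values were 204 ± 8.58 for FOXO1, 179 ± 14.3 for FOXO3 and 96.5 ± 9.66 for FOXO4. The order was the same in both groups, and the gap between FOXO1 and FOXO3 was narrower with BLU6864. FOXO1 made up 54.6% and 53.0% of the summed FOXO level in the DMSO libraries and 43.0% and 42.2% in the BLU6864 libraries. With 2 libraries a group, the exact two-sided permutation test of this share cannot give a p below 0.333, which is the value it gave. The number of FOXO3 reads per FOXO1 read, which no scaling of the libraries can alter, was 1.13 and 1.07 with BLU6864 and 0.732 and 0.766 with DMSO.

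**Figure D2:**
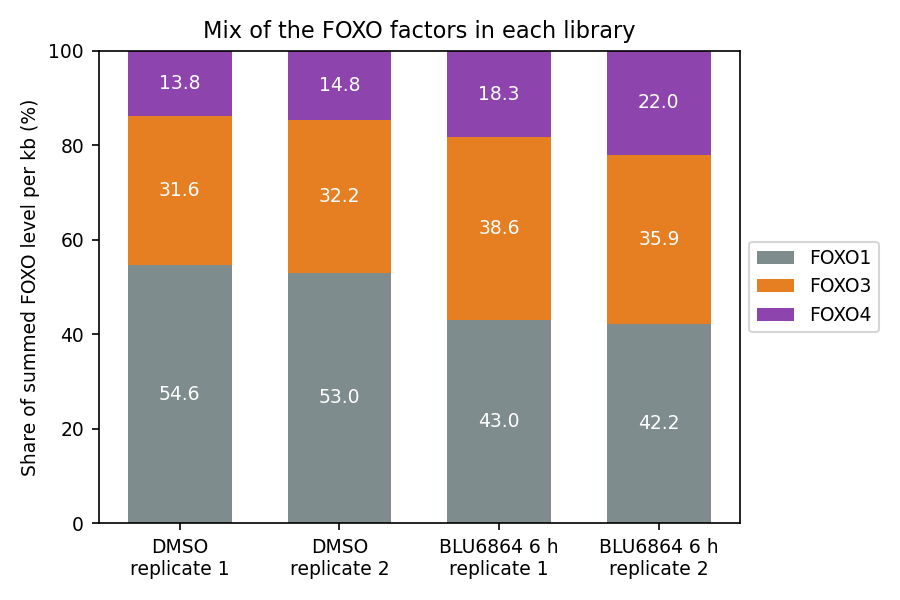
Share (%) of FOXO1, FOXO3 and FOXO4 in the summed FOXO level per kilobase of transcript, with 1 bar for each library. FOXO1 falls from 54.6% and 53.0% in the DMSO libraries to 43.0% and 42.2% in the BLU6864 libraries, while FOXO4 goes from 13.8% and 14.8% to 18.3% and 21.98%.

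Reads of FOXO1 and FOXO3 can also match other genes. Of all 50-base windows of the canonical transcript, the read length in the labels, 37.8% of those of FOXO3 also occur in another gene, its near copy FOXO3B or, in part, RNF2 and NLRP12, and 22.8% of those of FOXO1 in an overlapping long noncoding RNA and the pseudogene FOXO1B. None of the windows of FOXO4, CCNG2, CITED2, FBXO32 or PDK4 is shared, and 3.60% or less of those of SESN1, SESN3 and KLHL24 are. The counting of such reads is not described in the sources, so the levels of FOXO1 and FOXO3 are uncertain. The methods of the study describe longer, paired-end reads, in conflict with the labels, and the shares hold only for single reads of the labelled length. No other gene of the deposited table overlaps a member.

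Among the targets, SESN1 encodes a sestrin, a stress-induced inhibitor of mTORC1 signalling (ENSG00000080546, hg19 chromosome 6, 109307640 to 109416022). Its normalized counts were 936 and 932 in the BLU6864 libraries and 466 and 508 in the DMSO libraries. The treated libraries were nearly equal and stood well clear of the controls. SESN1 rose 1.93-fold (0.95 ± 0.11, adjusted p = 1.9e-07, edgeR). The related SESN3, a FOXO target in other cells (ENSG00000149212, hg19 chromosome 11, 94898704 to 94965705), had only 8 and 5 reads in the BLU6864 libraries, beside 1 and 3 in the DMSO libraries. After scaling for library size the ratio was 3.23, with an exact 95% interval of 0.998 to 13.6 that covers counting error only, so a difference was not detectable at this depth.

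SESN1 and FOXO3 are neighbours, 301662 bases apart on chromosome 6, and CITED2 lies further along the same chromosome. The single gene of the table between them, ARMC2, which encodes an armadillo repeat protein, had 118 ± 0.902 normalized counts in treated cells, beside 71.1 ± 13.9 in controls (0.75 ± 0.19, adjusted p = 0.00296, edgeR). The adjacent genes on the outer sides, LACE1 (-0.13 ± 0.15, adjusted p = 0.498) and CEP57L1 (0.15 ± 0.12, adjusted p = 0.349), did not pass. PPIL6, further along, also passed as higher (0.66 ± 0.22, adjusted p = 0.0195, edgeR), as did 20.3% of all tested genes. Whether position played a part was not tested. ARMC2, LACE1, CEP57L1 and PPIL6 were named after the values were seen.

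CCNG2 encodes cyclin G2, an unconventional cyclin that is linked to cell cycle arrest (ENSG00000138764, hg19 chromosome 4, 78078304 to 78354542). It reached 5945 and 5860 normalized counts with BLU6864 against 3460 and 3668 with DMSO. The difference of the means far exceeded the spread within either group. CCNG2 rose 1.66-fold (0.73 ± 0.11, adjusted p = 4.7e-06, edgeR).

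KLHL24, an adaptor of a cullin ubiquitin ligase that targets keratin 14 in skin (ENSG00000114796, hg19 chromosome 3, 183353356 to 183402265), stood at 5383 and 4872 normalized counts with BLU6864 and at 2557 and 2873 with DMSO. The groups were again apart. KLHL24 rose 1.89-fold (0.92 ± 0.11, adjusted p = 1.7e-07, edgeR). SESN1 and KLHL24 thus had log2 fold changes that differed by less than their SE.

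PDK4 encodes a kinase that inhibits pyruvate dehydrogenase and so spares glucose (ENSG00000004799, hg19 chromosome 7, 95212811 to 95225803). It was barely expressed, with 21 and 20 reads in the BLU6864 libraries and 2 and 5 in the DMSO libraries. PDK4 had the largest log2 fold change of the 9 tested members and also the widest error (2.50 ± 0.55, adjusted p = 5.7e-04, edgeR). The library-scaled ratio of the reads was 5.82, with an exact 95% interval of 2.59 to 15.4 for counting error only. Its size depended on the DMSO libraries, being 1.87 without DMSO replicate 1 and 3.39 without DMSO replicate 2 on the log2 scale, with the call kept in both.

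CITED2 and FBXO32 did not share the rise. CITED2, a transcriptional coregulator that restrains hypoxia-inducible factor (ENSG00000164442, hg19 chromosome 6, 139693393 to 139695757), had 3732 and 3480 normalized counts with BLU6864 and 4407 and 4197 with DMSO. Both treated libraries were below both controls. The log2 fold change of -0.25 ± 0.11 did not pass (adjusted p = 0.0618, edgeR). It did pass without DMSO replicate 2 (-0.29, adjusted p = 0.00731), and over all other analyses the adjusted p lay between 0.00731 and 0.527. FBXO32 encodes atrogin-1, a ubiquitin ligase subunit known for FOXO-driven muscle wasting (ENSG00000156804, hg19 chromosome 8, 124510129 to 124553446). Its normalized counts of 4456 and 4397 with BLU6864 and 4890 and 4725 with DMSO gave -0.11 ± 0.11 (95% interval -0.34 to 0.11, adjusted p = 0.412, edgeR). A rise of the size of CCNG2 is outside that interval. TRIM63, which encodes the other muscle atrophy ligase, had no read in any library.

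**Figure D3:**
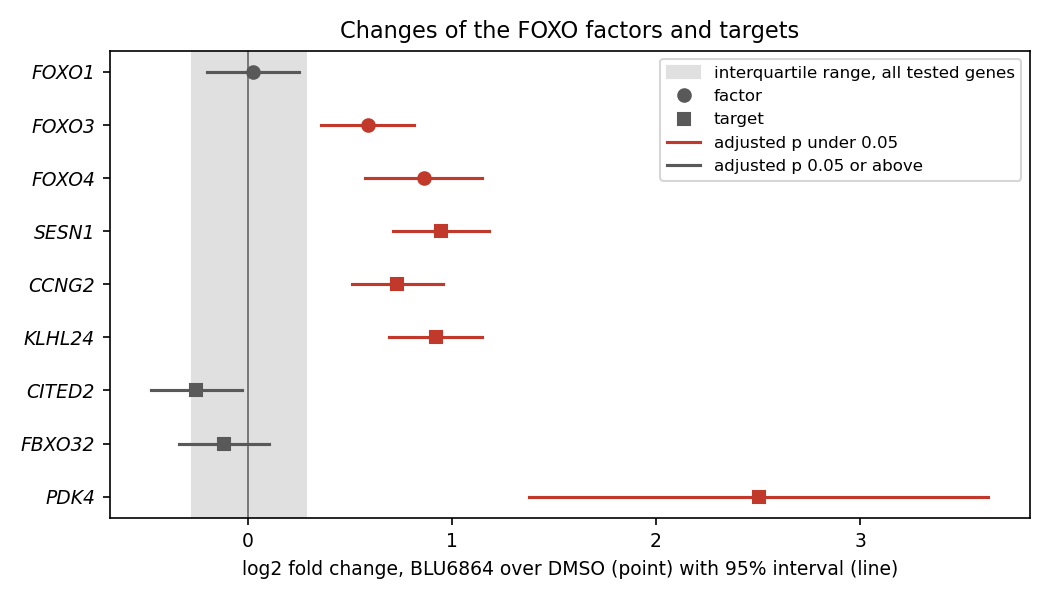
log2 fold change of BLU6864 over DMSO for the 9 tested members, with the 95% interval as a line, circles for factors and squares for targets. FOXO3, FOXO4, SESN1, CCNG2, KLHL24 and PDK4 (red) lie to the right of the grey interquartile range of all tested genes, -0.27 to 0.29, and FOXO1, CITED2 and FBXO32 (dark) have points within it.

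Factors and targets were then set side by side. The median log2 fold change was 0.59 for the 3 factors and 0.83 for the 6 tested targets, beside 0.01 for all tested genes. Taken over all 7 targets, SESN3 included, as ratios of group means, the median was 0.92. The ranges overlapped, because the targets ran from -0.25 for CITED2 to 2.50 for PDK4 and the factors from 0.03 for FOXO1 to 0.86 for FOXO4. The targets exceeded the factors by 0.24 at the median, and by 0.10 without DMSO replicate 1 and 0.38 without DMSO replicate 2, which is a description with no test. The target median counts PDK4, the highest of the targets, which passed the filter only through its BLU6864 libraries. Within the libraries, there were 0.680 and 0.758 SESN1 reads per FOXO3 read with BLU6864 and 0.510 and 0.618 with DMSO. KLHL24 reads per FBXO32 read, a comparison of 2 targets, numbered 1.21 and 1.11 with BLU6864 and 0.523 and 0.608 with DMSO. The targets therefore did not move as a block.

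In DMSO the order of the levels per kilobase was led by CITED2 with 1806 ± 62.3 normalized counts per kb, followed by FBXO32 (713 ± 17.3), CCNG2 (651 ± 26.9) and KLHL24 (370 ± 30.5). SESN1 (85.9 ± 5.22) came below the factors FOXO1 and FOXO3, and PDK4 (1.01 ± 0.715) and SESN3 (0.219 ± 0.175) were last. With BLU6864, CCNG2 (1079 ± 11.0) and KLHL24 (699 ± 49.2) stood above FBXO32 (656 ± 6.23), and CITED2 remained first (1514 ± 74.9). KLHL24 and FBXO32 then differed by less than the SD of KLHL24, and SESN1 (165 ± 0.526) and FOXO3 by less than the SD of FOXO3. PDK4 and SESN3 in DMSO differed by little more than the SD of PDK4.

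The profiles most like those of the factors were sought among the 10685 tested genes whose normalized counts averaged 100 or more, by Euclidean distance of centred log2 normalized counts over the 4 libraries. LMNB1 (distance 0.0148) and DDX49 (0.0164) were closest to FOXO1, CDK19 (0.0271) and CASP10 (0.0348) to FOXO3, and POMZP3 (0.0461) and ZBTB12 (0.0548) to FOXO4. With 4 libraries many genes share such a profile, so the likeness is only a description.

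Of 22 tested genes that control FOXO proteins through PI3K and AKT, 6 rose, 7 fell and 9 did not pass, beside 20.3% higher and 22% lower among all tested genes (median log2 fold change -0.07, against 0.01). These shares lie near the background, so the counts are no result about the list. PIK3IP1, an inhibitor of PI3K, rose 5.35-fold, from 393 ± 21.95 to 2093 ± 193 normalized counts (adjusted p = 3.6e-15, edgeR). SGK1, a kinase that phosphorylates FOXO3, rose 2.99-fold, from 118 ± 31.1 to 349 ± 33.9 (adjusted p = 1.2e-08). PIK3R1, which encodes the main regulatory subunit of PI3K, fell 2.05-fold, from 1390 ± 0.174 to 676 ± 11.6 (adjusted p = 1.5e-08). IRS2, an insulin receptor adaptor that FOXO factors activate in liver, fell 2.11-fold, from 1573 ± 210 to 743 ± 95.8 (adjusted p = 4.3e-08). IRS2, INSR (called higher) and RICTOR (not passing) also belong to the list of FOXO-activated genes.

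Among partners and modifiers of FOXO proteins, 6 of 21 tested genes fell, 2 rose and 13 did not pass (median -0.17), where 22% of all tested genes fell and 20.3% rose. USP7, a deubiquitinase that acts on FOXO4, fell (-0.72 ± 0.11, adjusted p = 4.7e-06, edgeR), as did the adaptor YWHAG (-0.58 ± 0.11, adjusted p = 1.6e-04) and SKP2, a ubiquitin ligase subunit for FOXO1 (-0.47 ± 0.11, adjusted p = 7.7e-04). The acetyltransferase CREBBP rose (0.44 ± 0.11, adjusted p = 0.00227), and so did the deacetylase SIRT1 (0.30 ± 0.11, adjusted p = 0.0249), whose adjusted p was 0.0511 with DESeq2 and ranged from 0.00147 to 0.309 over the other analyses. The 8 calls of this list fell to 4 without BLU6864 replicate 1 and to 2 without BLU6864 replicate 2, where SKP2 (adjusted p = 0.0626) and CREBBP (adjusted p = 0.195) lost theirs, the lowest adjusted p over the other analyses being 5.4e-06 and 3.2e-08.

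A wider list of genes that FOXO factors are known to activate, none of them a member, gave 17 higher, 6 lower and 5 not passing of 28 tested, with a median of 0.47, beside 20.3% higher and 22% lower among all tested genes. Some of these calls were lost when a BLU6864 library was omitted. With DESeq2 the list had 21 calls, and ATG12 (adjusted p = 0.0715) and S1PR1 (adjusted p = 0.244) did not pass. ATG12 and S1PR1 were named after their values were seen. TNFSF10, the death ligand TRAIL, rose 9.42-fold (adjusted p = 1.5e-15, edgeR), and BCL2L11, which encodes BIM, rose 4.06-fold (adjusted p = 7.9e-14). BBC3, which encodes PUMA, rose 2.84-fold (adjusted p = 1.0e-10), and the receptor gene ERBB3 rose from 3.47 ± 0.268 to 156 ± 21.1 normalized counts (5.44 ± 0.33, adjusted p = 4.2e-13). With 4 and 3 reads in DMSO, ERBB3 passed the filter only through the BLU6864 libraries, where it was high. The other death ligand of the list, FASLG, went the other way, from 19.2 ± 3.93 to 2.98 ± 0.242 (-2.65 ± 0.56, adjusted p = 4.0e-04), and was named after its values were seen. With 3 reads in each BLU6864 library, FASLG passed the filter only through the DMSO libraries, where it was high. CDKN1A fell from 6498 ± 3.49 to 4413 ± 24.8 normalized counts (adjusted p = 2.0e-04, edgeR). GADD45A (-0.54 ± 0.12, adjusted p = 5.9e-04), BNIP3 (-0.53 ± 0.11, adjusted p = 3.8e-04) and MXI1 (-0.30 ± 0.11, adjusted p = 0.0256) were also lower, as was IRS2. BNIP3 and MXI1 were among the calls lost when a BLU6864 library was omitted. CDKN1A, GADD45A, BNIP3 and MXI1 were named after their values were seen. Of the 2 tested genes that FOXO factors repress, cyclin D1 (CCND1) fell 9.88-fold (adjusted p = 7.9e-17), and FOXM1 did not pass (0.09 ± 0.11, adjusted p = 0.509). When DMSO replicate 1 was omitted FOXM1 passed as higher (adjusted p = 0.0400), and over the other analyses its adjusted p reached 0.849.

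**Figure D4:**
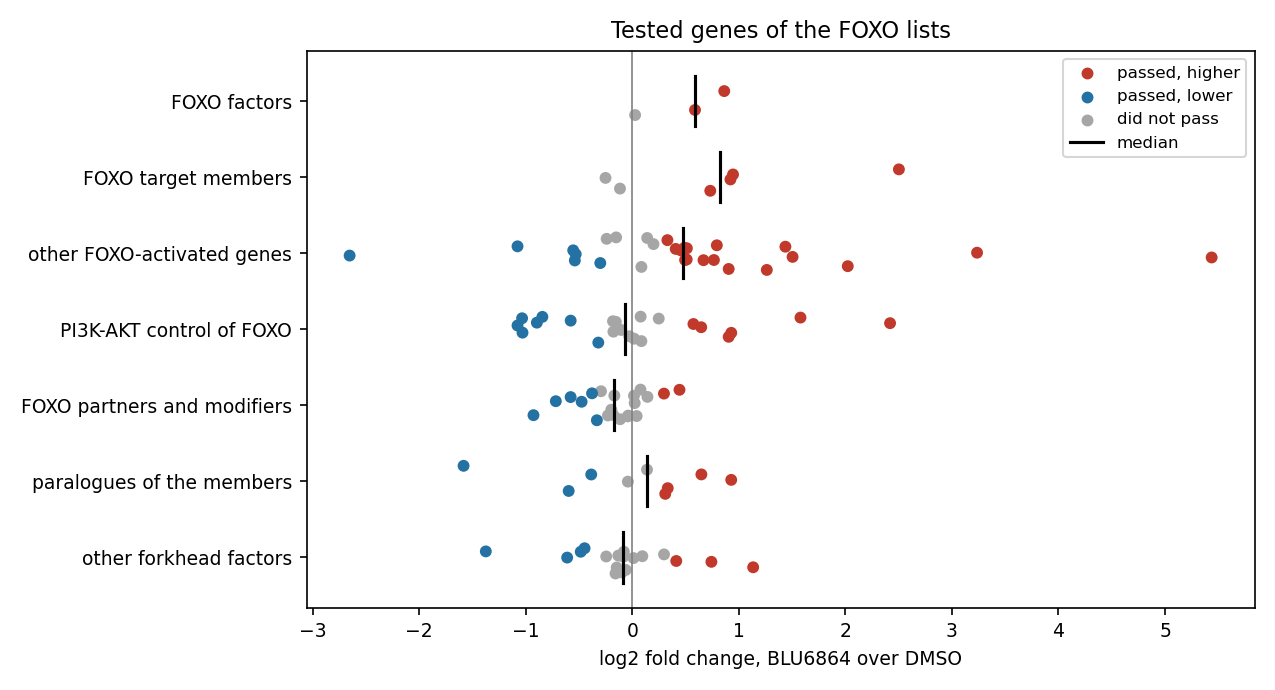
log2 fold change of BLU6864 over DMSO for each tested gene of the factors, the targets and 5 related lists, with red for genes that passed as higher, blue for lower, grey for not passing and a black bar for the median. The medians are 0.59 for the factors, 0.83 for the tested targets, 0.47 for other FOXO-activated genes and -0.07 for the PI3K and AKT genes.

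Of 9 tested paralogues of the members, 4 rose and 3 fell (median 0.14), beside 20.3% and 22% of all tested genes. The pyruvate dehydrogenase kinases were called in both directions. PDK2 rose 1.90-fold, from 325 ± 17.6 to 616 ± 61.9 normalized counts (adjusted p = 1.1e-06, edgeR), while PDK1 fell 1.51-fold, from 2128 ± 178 to 1403 ± 22.1 (adjusted p = 5.2e-05). CITED4 fell 2.996-fold, from 517 ± 106 to 172 ± 13.3 (adjusted p = 2.1e-09), a larger change than that of CITED2. FBXO25 rose (0.65 ± 0.12, adjusted p = 5.9e-05), in contrast to FBXO32. The remaining 3 called paralogues, named after their values were seen, were SESN2 (0.31 ± 0.10), CCNG1 (0.33 ± 0.11) and PDK3 (-0.38 ± 0.12). None of SESN2, CCNG1 and PDK3 passed once BLU6864 replicate 1 was omitted (adjusted p = 0.151, 0.285 and 0.136), nor once replicate 2 was (adjusted p = 0.304, 0.176 and 0.182), and 4 calls were left in each case. PDK3 also missed the threshold with DESeq2 (adjusted p = 0.0510). Over the other analyses the smallest adjusted p was 0.00225 for SESN2, 0.00176 for CCNG1 and 9.4e-04 for PDK3.

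Of 18 other forkhead factors tested, 3 rose, 4 fell and 11 did not pass (median -0.09), close to the 20.3% higher and 22% lower of all tested genes, and their difference from the FOXO factors was not tested. FOXQ1 rose 2.20-fold (adjusted p = 2.5e-06, edgeR) and FOXC1 rose 1.67-fold (adjusted p = 1.6e-05). FOXJ3 (-0.61 ± 0.11, adjusted p = 4.6e-05) and FOXN2 (-0.45 ± 0.11, adjusted p = 0.00252) fell. FOXN3 passed as higher (0.41 ± 0.13, adjusted p = 0.00967). FOXA2 (-1.37 ± 0.41, adjusted p = 0.00831) and the thyroid marker FOXE1 (-0.48 ± 0.14, adjusted p = 0.00554) passed as lower. These remaining calls were named after their values were seen. FOXA2 was sparse, its raw counts being 29 and 23 in the controls but only 6 and 14 in the treated libraries. Its entry into the test thus depended on the controls, in which its level was higher. Omission of BLU6864 replicate 1 left FOXN2 at an adjusted p of 0.0653, FOXN3 at 0.0522 and FOXA2 at 0.206. Omission of BLU6864 replicate 2 left FOXN2 at 0.0794, FOXN3 at 0.135 and FOXE1 at 0.141, and the list had 4 calls in place of 7 in both cases. FOXN3 was also lost without DMSO replicate 2 (adjusted p = 0.0604) and FOXA2 with DESeq2 (adjusted p = 0.102), and the lowest adjusted p over the other analyses was 2.2e-07 for FOXN3, 0.00366 for FOXA2, 5.6e-05 for FOXE1 and 8.8e-06 for FOXN2.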

How the data were processed

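The single deposited table holds, per gene, the authors' raw read counts, their normalized counts and the output of DESeq2. Their processing notes name STAR 2.3, hg19 and DESeq2, and the labels 50 bp single-end reads, whereas the study's methods describe longer paired-end reads. Which tool counted the reads, on which annotation release and with which strand setting, is not given in the sources used here. The deposited normalized signal is each count divided by 1 size factor per library, with a mean over the libraries. Its columns of the authors' own comparison (log2 fold change and its error, Wald score, p-values) were left unused. A symbol on several rows was represented by its most abundant row.

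The main test was the two-sided quasi-likelihood F test of edgeR 4.0.16 (R 4.3.3) on raw counts after filterByExpr and TMM scaling, with group as the sole term and Benjamini-Hochberg adjustment over 12696 genes. Each SE is the log2 fold change divided by the root of F. Means and SDs of groups are those of the deposited normalized counts. The study used DESeq2, which served as an alternative (1.42.0). The edgeR step was tested on simulated data. Other alternatives were no filter, median-ratio factors, library totals, a replicate block, omission of each library and, for counts of calls, the thresholds of the study's methods (p under 0.01, log2 fold change beyond 0.5). Named genes were all members, up to 4 called genes per list with the smallest adjusted p, the 2 closest profiles per factor, and some of the genes in counts of 5 or fewer. Members and lists were chosen with earlier results of these data known. Transcript lengths and windows of 50 bases came from GENCODE 44, and promoters from RefSeq (GRCh38.p14).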

Additional observations from a re-analysis of the deposited data

How the results depend on the processing

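The 6 member calls were kept in all 9 alternatives for which a log2 fold change was computed, and FOXO1 and FBXO32 passed in none of them. CITED2 passed as lower without DMSO replicate 2 and with the replicate block (-0.25, adjusted p = 0.0283), which gave 1 member called lower in place of 0. Replicate numbers 1 and 2 are shared by the groups only as numbers (correlation of deviations 0.13 over 12696 genes), and the block raised the calls to 2924 higher and 3039 lower from 2574 and 2790. Under the thresholds of the study's methods the counts were 1397 and 1584, with 6 members higher. With DESeq2 they were 1912 and 2366. When each library was left out in turn, genes called higher ranged from 1250 to 3311 and lower from 1490 to 3621, members called lower from 0 to 1, partners and modifiers from 2 to 8, FOXO-repressed genes from 1 to 2, paralogues from 4 to 7, other forkhead factors from 4 to 9, and the excess of the target median over the factor median from 0.10 to 0.38. Genes called higher or lower were fewest when a BLU6864 library was omitted. The same held for calls among PI3K and AKT genes, partners, other FOXO-activated genes, paralogues and other forkhead factors, and the cause was not tested. In these fits the lone library of a group is assumed to vary like the other group. The median log2 fold change of all tested genes was 0.01 with TMM and 0.06 with library totals. Without the filter SESN3 was tested and did not pass (1.63 ± 0.97, adjusted p = 0.202). Depth limits SESN3 and PDK4 most, with 17 and 48 reads in all.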
